A study of Mus musculus with 12 samples.

Results

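The transcripts described here are a list of 36 genes of red blood cell formation and heme synthesis, matched by gene symbol to the count tables of a study of mouse spleen cells around cryo-thermal therapy (CTT), a local treatment that freezes and then heats a tumor. All 36 genes were found among the 16805 genes of the neutrophil table and the 16954 genes of the monocyte table. All 36 passed the filter on low counts in both tables and had at least some reads in all 12 libraries. Wild-type mice bearing a tumor gave spleen cells in 4 groups of 3 RNA-seq libraries. Cells labelled neutrophils were pulled out with an antibody to the surface protein Ly6G, from mice 12 h after CTT (the CTT neutrophil libraries) and from mice that bore a tumor without therapy (the control neutrophil libraries). Cells labelled monocytes were pulled out with an antibody to the chemokine receptor CCR2, 5 days after CTT, from mice that were also given anti-Ly6G, a neutrophil-depleting antibody (the anti-Ly6G monocyte libraries), and from mice given CTT without it (the CTT monocyte libraries). Every monocyte library thus comes after CTT. No source used here gives the strain, age or sex of the mice, the tumor, the number of mice per library or the purity of the selected cells. Libraries are labelled as biological replicates, and each p-value rests on the spread among 3 libraries a group. Each held 30942849 to 35956571 counted reads.

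Red blood cells form from progenitors that take up iron, build heme in their mitochondria and fill with globin while the nucleus is condensed and lost. In mice the spleen is a site of this process and can enlarge its output under stress, and erythroblasts there mature on macrophages of the red pulp. GATA1, TAL1 and KLF1 switch on most erythroid genes, erythropoietin keeps the precursors alive through its receptor, and the last cells of the series keep globin mRNA after many other transcripts have decayed. Neither antibody used for selection targets an erythroid cell.

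The labels were set against defining genes. Ly6g read 12.7, 19.3 and 25.5 CPM (counts scaled by sequencing depth and, by TMM, for library composition) in the CTT neutrophil libraries and 9.52, 14.7 and 11.2 CPM in the control neutrophil libraries, but 62.7, 57.1 and 48.5 CPM in monocytes of the anti-Ly6G group. In the CTT monocyte libraries Ly6g read 16.1, 11.7 and 13.1 CPM, within the range of the neutrophil libraries. The gene behind the selection antibody was thus no higher in the cells labelled neutrophils than in the monocytes of mice given anti-Ly6G. The cell types were normalized separately. Ccr2, the gene behind the other selection, read 587, 439 and 512 CPM with anti-Ly6G and 264, 190 and 194 CPM in the CTT monocyte libraries. Among the neutrophil libraries control replicate 1 was set apart. Its 26 listed cell cycle genes summed to 8914 CPM, against 1715 to 2494 CPM in the other 5 neutrophil libraries, and its 9 listed B cell markers to 3250 CPM, against 6814 to 8063 CPM. The median log2 fold change and the edgeR counts of the erythroid gene list in neutrophils are therefore given with and without it. For single genes the text gives the value without it only in part, and a later figure shows both values for each gene.

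Promoters were taken from RefSeq on GRCm38.p6, which corresponds to the mm10 build of the reads, from 250 bases before to 50 bases after the start, and 28 of the 36 genes had at least 1 entry. The 6 below belong to genes that the results turn on: both alpha globins, a beta globin, the first heme enzyme of red cells, the erythropoietin receptor and the regulator Klf1. Each is written 5′ to 3′ on the gene's own strand, and capitals mark letters that match a GATA motif (the form AGATAA as well as TGATAA, and the forms that end in G, AGATAG as well as TGATAG) or the CACCC-type motif CCNCNCCC bound by KLF1, on either strand, with overlapping matches merged.
Hba-a1 (chr11:32283422-32283721, plus strand): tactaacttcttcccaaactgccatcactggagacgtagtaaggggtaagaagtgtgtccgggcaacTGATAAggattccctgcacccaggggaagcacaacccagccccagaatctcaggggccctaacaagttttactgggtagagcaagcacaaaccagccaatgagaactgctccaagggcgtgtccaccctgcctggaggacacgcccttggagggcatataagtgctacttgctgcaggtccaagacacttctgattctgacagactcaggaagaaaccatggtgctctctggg
Hba-a2 (chr11:32296242-32296541, plus strand): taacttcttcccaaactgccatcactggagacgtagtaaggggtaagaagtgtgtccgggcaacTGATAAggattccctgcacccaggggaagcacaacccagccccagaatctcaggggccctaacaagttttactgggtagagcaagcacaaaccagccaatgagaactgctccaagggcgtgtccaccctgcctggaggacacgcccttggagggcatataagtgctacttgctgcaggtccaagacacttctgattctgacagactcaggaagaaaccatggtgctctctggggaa
Hbb-bs (chr7:103827879-103828178, minus strand): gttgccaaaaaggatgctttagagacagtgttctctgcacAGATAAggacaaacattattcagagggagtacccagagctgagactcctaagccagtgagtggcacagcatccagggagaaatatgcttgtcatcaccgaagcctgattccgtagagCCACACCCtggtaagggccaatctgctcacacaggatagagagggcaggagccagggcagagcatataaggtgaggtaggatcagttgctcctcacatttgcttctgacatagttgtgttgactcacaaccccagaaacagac
Alas2 (chrX:150547167-150547466, plus strand): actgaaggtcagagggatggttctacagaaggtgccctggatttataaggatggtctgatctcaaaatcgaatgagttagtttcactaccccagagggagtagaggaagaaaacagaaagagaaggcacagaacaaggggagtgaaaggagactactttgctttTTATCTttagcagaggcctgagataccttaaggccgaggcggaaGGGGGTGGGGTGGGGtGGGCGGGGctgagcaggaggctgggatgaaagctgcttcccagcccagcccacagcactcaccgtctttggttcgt
Epor (chr9:21963527-21963826, minus strand): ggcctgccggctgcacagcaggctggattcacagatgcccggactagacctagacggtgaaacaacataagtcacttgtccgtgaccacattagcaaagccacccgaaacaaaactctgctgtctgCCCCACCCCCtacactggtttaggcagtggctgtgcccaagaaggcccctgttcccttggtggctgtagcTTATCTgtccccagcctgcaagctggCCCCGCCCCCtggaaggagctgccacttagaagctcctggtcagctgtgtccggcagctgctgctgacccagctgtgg
Klf1 (chr8:84901732-84902031, plus strand): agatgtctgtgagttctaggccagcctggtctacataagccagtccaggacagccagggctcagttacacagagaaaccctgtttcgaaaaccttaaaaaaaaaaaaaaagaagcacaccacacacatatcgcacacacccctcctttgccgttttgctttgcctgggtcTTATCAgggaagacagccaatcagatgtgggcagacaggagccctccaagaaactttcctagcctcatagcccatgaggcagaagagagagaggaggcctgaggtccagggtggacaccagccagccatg
The Hba-a1 and Hba-a2 windows hold the same 297 bases, shifted by 3, with 0 differences, and their products are near-identical as well. Hbb-bs carried AGATAA from 210 bases before the start and CCACACCC from 93 bases before it. A GATA motif was in 19 of the 28 genes with an entry (67.9%), against 33.0% of 27025 genes in the promoter table, and the CACCC-type motif in 20 of 28 (71.4%), against 51.9%. These are matches of letters, not measured binding.

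In the neutrophil libraries the erythroid transcripts were spread widely among the 3 control libraries. The 36 genes summed to 1970, 1522 and 969.9 CPM in the CTT libraries and to 22936, 4079 and 1621 CPM in control replicates 1, 2 and 3. All 36 were highest in control replicate 1, where 36% of all 13058 tested genes were highest, and 35 of 36 were next highest in control replicate 2, above control replicate 3 and all CTT libraries (20.8% of all tested genes), the exception being Car1. Control replicate 3, the lowest control library for all 36, lay above all CTT libraries in 10 genes, within their range in 23 and below it in 3. The groups thus did not overlap in 10 of the 36, where 11% of all tested genes were lower without overlap. All 36 log2 fold changes after CTT were below 0, with a median of −2.82, against −0.02 over all tested genes, and the median was −0.81 without control replicate 1. None of the 36 passed the threshold of 0.05 in edgeR (quasi-likelihood F test, p-values adjusted by Benjamini-Hochberg across every tested gene; 0 of 36, adjusted p 0.226 to 0.516), where 0.567% of all tested genes rose and 0% fell. Without control replicate 1 it was again 0 of 36, where 1.93% of all tested genes rose and 0.233% fell. At an unadjusted p below 0.05 there were 31 of 36, all lower, against 5.74% of all tested genes lower. Without control replicate 1 there were 12 of 36. The 5.74% does not apply to that fit, and its own share of all tested genes is not given here. Whether 12 is more than that share can therefore not be read. DESeq2 called 6 of the 36 lower (Hba-a1, Hba-a2, Hbb-bt, Alas2, Uros and Epb42, adjusted p 0.0234 to 0.0468), where it called 0.819% of all tested genes lower, while limma-voom and limma-trend called 0. Differences among libraries in the number of erythroid cells and in RNA per cell cannot be told apart in these bulk samples.

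**Figure D1:**
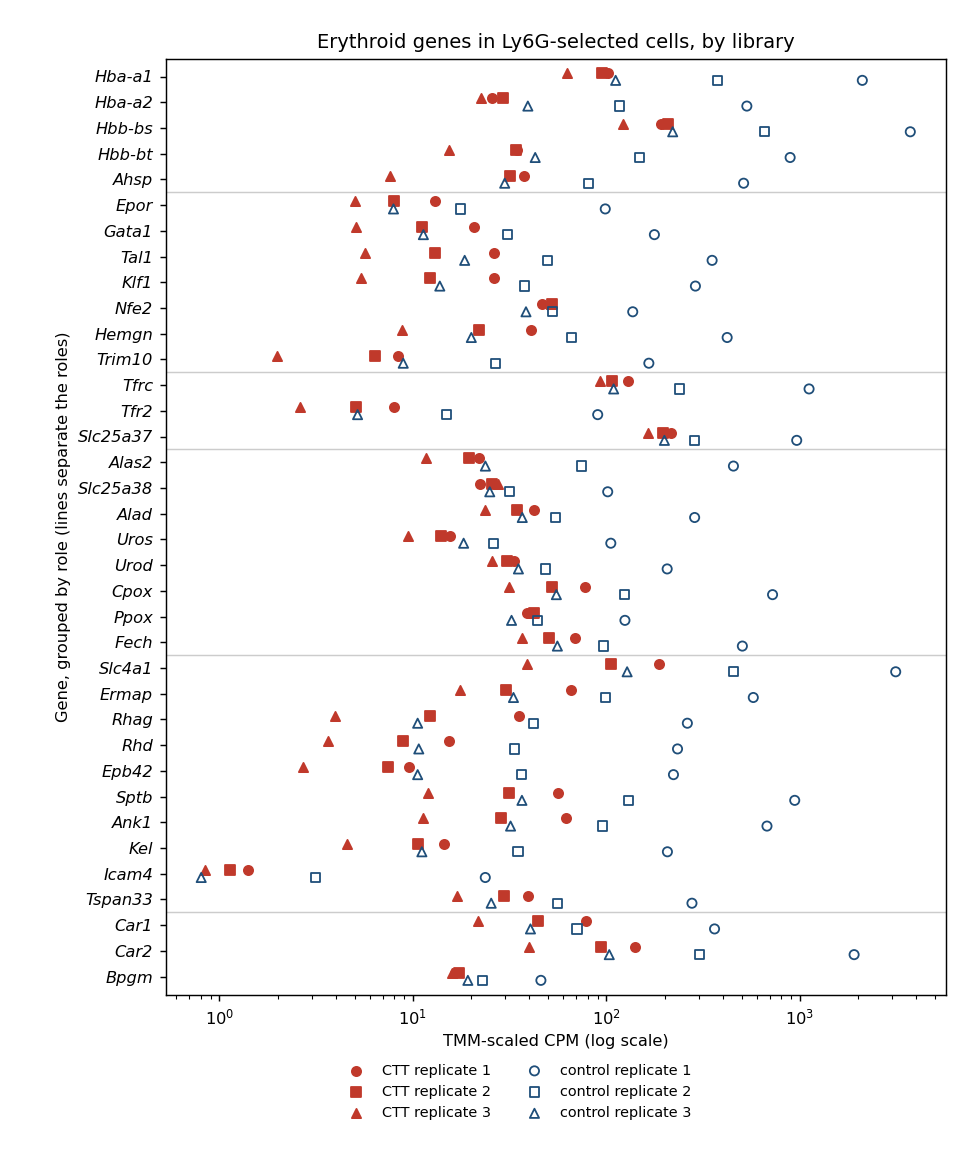
TMM-scaled CPM (log axis) of the 36 genes in the 6 Ly6G-selected libraries, with filled red symbols for CTT, open blue symbols for control, and the shape giving the replicate. Control replicate 1 (open circles) is highest for all 36 genes, and control replicate 3 (open triangles) lies within the CTT range for 23.

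The 5 globin genes, with the alpha globin chaperone counted among them, summed to 391, 399 and 229 CPM after CTT and 7761, 1379 and 444 CPM in control. Hbb-bs, an adult beta globin (chromosome 7, 103826523 to 103827928 in RefSeq on GRCm38.p6, like the coordinates that follow), read 192, 208 and 121 CPM in the CTT neutrophil libraries and 3723, 657 and 220.2 CPM in the control neutrophil libraries. Hba-a1, an adult alpha globin (chromosome 11, 32283672 to 32284486), read 102, 95.4 and 62.7 CPM after CTT and 2103, 375 and 112 CPM in control. For both genes every CTT library was below every control library, although control replicate 3 lay close to the highest CTT library. The same order held for Hba-a2 and Hbb-bt, so that 4 of the 5 globin genes did not overlap between groups, where 11% of all tested genes were lower without overlap. Ahsp, which encodes the chaperone that holds free alpha globin, read 37.6, 31.8 and 7.58 CPM after CTT and 512, 80.8 and 29.8 CPM in control, with overlap. Log2 fold changes of the 5 genes ran between −3.69 (Hbb-bt, SE 1.06, edgeR adjusted p = 0.251) and −3.02 (Ahsp, SE 1.09, edgeR adjusted p = 0.338). Without control replicate 1 their median was −1.49, and Hba-a2 had the smallest adjusted p of all 36 genes (log2 fold change −1.60, edgeR adjusted p = 0.0792).

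The regulators split between erythroid factors and Nfe2. Klf1, which encodes the factor that drives adult globin and many erythroid genes, read 26.3, 12.3 and 5.37 CPM after CTT and 289, 37.7 and 13.8 CPM in control. Gata1, the master erythroid and megakaryocyte factor, read 20.8, 11.2 and 5.06 CPM after CTT and 177, 30.8 and 11.3 CPM in control. In both genes CTT replicate 1 lay above control replicate 3, so the groups overlapped. Tal1, the partner of GATA1, gave −3.22 (log2 fold change, SE 1.12, edgeR adjusted p = 0.325), or −1.18 without control replicate 1. Epor, the erythropoietin receptor, read 13.01, 7.96 and 5.03 CPM after CTT and 98.7, 17.5 and 7.94 CPM in control. Its log2 fold change was −2.25 (SE 0.90, edgeR adjusted p = 0.350), and −0.55 without control replicate 1. Hemgn, a nuclear protein of erythroid precursors, and Trim10, a TRIM family protein needed for terminal erythroid maturation, had −2.82 and −3.58 (SE 1.11 each). Trim10 was the regulator whose groups did not overlap. Over the fits that left out a library, the values nearest 0 were −0.84 for Hemgn and −1.66 for Trim10. Nfe2, which encodes a factor of globin and platelet gene control that myeloid cells also express, read 46.7, 52.1 and 51.9 CPM after CTT and 137, 52.7 and 38.4 CPM in control. The log2 fold change of Nfe2 stood at −0.60 (SE 0.44, edgeR adjusted p = 0.516) with all libraries and 0.15 without control replicate 1 (edgeR adjusted p = 0.679).

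The 3 iron uptake genes had a median log2 fold change of −2.16. Tfrc, the transferrin receptor that brings iron into dividing and erythroid cells, read 129, 107 and 92.2 CPM after CTT and 1116, 239 and 109 CPM in control. Slc25a37, or mitoferrin, which carries iron into mitochondria, read 216, 196 and 165 CPM after CTT and 963, 284 and 199 CPM in control. Tfr2, a transferrin receptor that partners with the erythropoietin receptor, stood at 8.01, 5.08 and 2.61 CPM after CTT and 90.2, 14.9 and 5.18 CPM in control. All 3 overlapped between groups, and their log2 fold changes of −2.16, −1.33 and −2.81 in this order became −0.67, −0.33 and −0.93 without control replicate 1.

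Along the heme pathway the largest difference was at the erythroid first step. Alas2, the erythroid form of the first enzyme (chromosome X, 150547417 to 150570622), read 21.9, 19.5 and 11.7 CPM after CTT and 454, 74.1 and 23.7 CPM in control, without overlap. It gave −3.38 (log2 fold change, SE 1.02, edgeR adjusted p = 0.266), or −1.46 without control replicate 1. Alas1, the form of the same enzyme in other tissues and not among the 36, read 53.1, 54.5 and 60.4 CPM after CTT and 37.5, 43.0 and 39.3 CPM in control (log2 fold change 0.49, SE 0.13, edgeR adjusted p = 0.197). The paired enzyme genes thus had opposite signs in the same libraries, and Alas1 was lowest in control replicate 1, where Alas2 was highest. Slc25a38, a mitochondrial carrier that brings in glycine for this step, read 22.2, 25.7 and 27.5 CPM after CTT and 102, 31.5 and 24.96 CPM in control. The next steps gave log2 fold changes of −1.92 for Alad, −1.94 for Uros and −1.69 for Urod. Without control replicate 1 these were −0.45, −0.76 and −0.48. Uros and Urod, like Alas2, did not overlap between groups. Thus 3 of the 8 genes were lower without overlap, where 11% of all tested genes were. Cpox, which makes protoporphyrinogen, read 77.7, 52.3 and 31.4 CPM after CTT and 723, 124 and 55.2 CPM in control. Fech, which inserts the iron, read 68.8, 50.4 and 36.7 CPM after CTT and 505, 96.98 and 55.8 CPM in control. Ppox, between them in the pathway, read 38.9, 42.2 and 41.8 CPM after CTT and 125, 44.2 and 32.4 CPM in control. Of the 8 genes, Ppox was the most even across libraries, and its value of −0.71 (log2 fold change, SE 0.47, edgeR adjusted p = 0.471) became 0.10 without control replicate 1. Alas2, Cpox and Ppox each overlap a gene on the opposite strand (Apex2, Gpr15 and B4galt3), and since the strand setting of the counting is not given, some of their reads may belong to those genes. The same holds for Sptb, Slc25a37, Ank1 and Icam4, which overlap Plekhg3 or genes without a described role.

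Slc4a1, the band 3 anion exchanger, read 186, 105 and 38.9 CPM after CTT and 3129, 454 and 128 CPM in control. Epb42, protein 4.2, which ties band 3 to the membrane skeleton, read 9.50, 7.43 and 2.70 CPM after CTT and 222, 36.6 and 10.6 CPM in control. Epb42 had the lowest log2 fold change of the 36 genes (−3.78, SE 1.11, edgeR adjusted p = 0.258) and was the gene of this group whose libraries did not overlap, while CTT replicate 1 exceeded control replicate 3 for Slc4a1. Sptb and Ank1, the spectrin and ankyrin of that skeleton, had −3.48 and −2.98. Blood group carriers Rhd, Kel, Rhag, Ermap and Icam4 had −3.31, −3.09, −2.61, −2.63 and −3.03. Rhag, a Rh-associated ammonium channel, differed most among the CTT libraries, at 35.4, 12.2 and 3.97 CPM, an 8.91-fold spread. Tspan33, a tetraspanin of late erythroid cells that B cells also express, had the log2 fold change nearest 0 in the group (−2.06, SE 0.84, edgeR adjusted p = 0.351). The median of the 10 membrane genes was −3.06, and −1.06 without control replicate 1. Over the fits that left out a library, the values nearest 0 were −1.84 (Epb42), −1.40 (Slc4a1), −1.33 (Sptb) and −0.90 (Ank1). For the other membrane genes they were −1.24 (Rhd), −1.21 (Kel), −0.61 (Rhag), −0.80 (Ermap), −0.80 (Icam4) and −0.50 (Tspan33). Icam4 was the lowest of the 36 at 1.40, 1.13 and 0.84 CPM after CTT and 23.7, 3.13 and 0.81 CPM in control.

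Of the cytosolic enzymes, Car2, the main carbonic anhydrase of mature red cells in the mouse, read 141, 93.5 and 39.8 CPM after CTT and 1907, 303 and 103 CPM in control. Car1, a carbonic anhydrase that also marks early erythroid progenitors, read 78.5, 44.4 and 21.6 CPM after CTT and 362, 70.5 and 40.5 CPM in control. Car1 in CTT replicate 1 was above control replicates 2 and 3, which held for no other gene among the 36. Bpgm, which makes the 2,3-bisphosphoglycerate that lowers the oxygen affinity of hemoglobin, read 16.6, 17.2 and 15.9 CPM after CTT and 45.9, 22.9 and 19.2 CPM in control, without overlap. The excess in control replicate 1 was smallest for Bpgm, at 2.00 times the highest other neutrophil library.

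**Figure D2:**
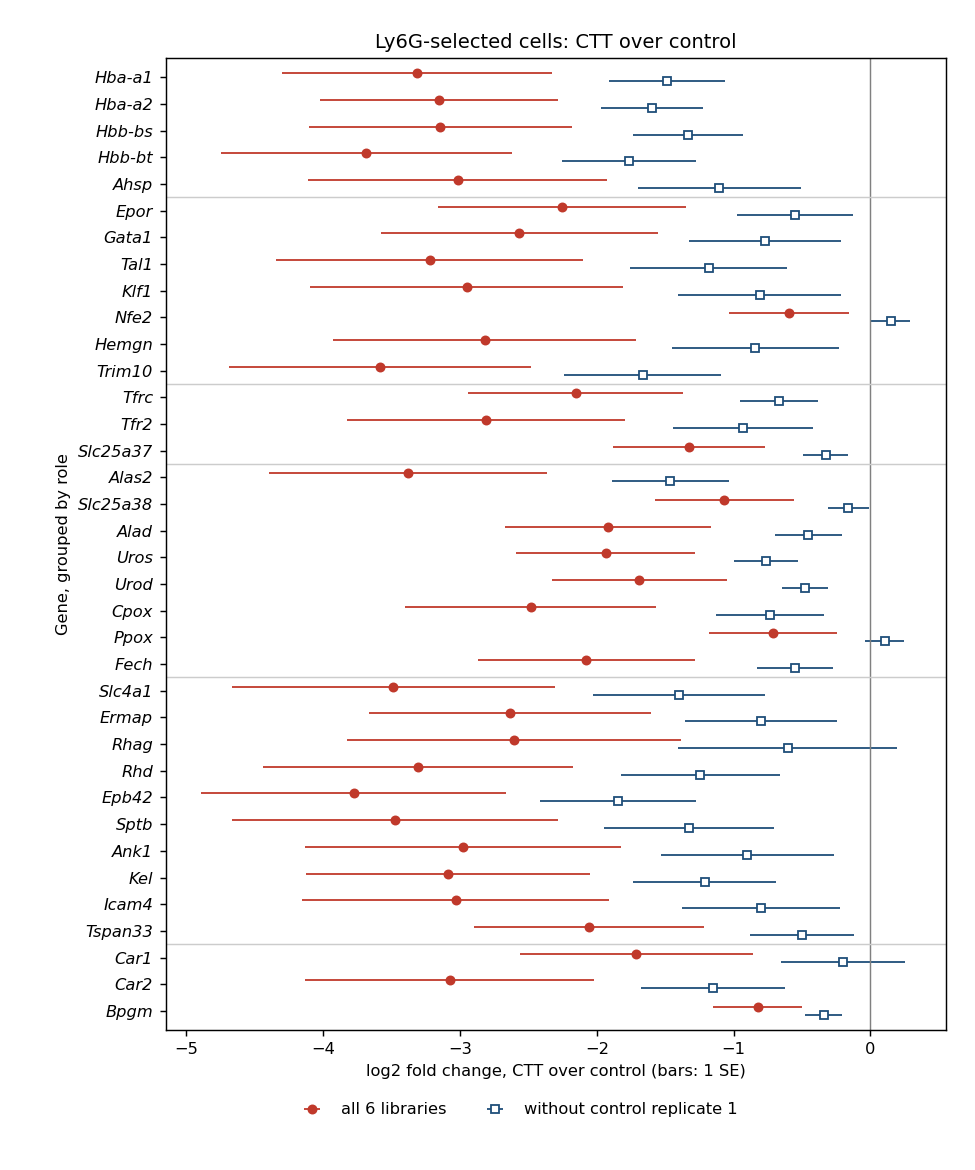
Log2 fold change (CTT over control, bars of 1 SE, edgeR) of the 36 genes in Ly6G-selected cells, with filled red circles for all 6 libraries and open blue squares for the fit without control replicate 1. The median moves to −0.81 without that library, against −2.82 with it, and Nfe2 and Ppox then lie above 0.

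The height of control replicate 1 over the highest other neutrophil library ranged from 2.00 times (Bpgm) to 7.66 times (Klf1), with a median of 5.81. The median was 6.58 for membrane genes, 6.22 for regulators, 5.66 for globin genes, 4.72 for heme synthesis, 4.66 for iron uptake and 4.62 for cytosolic enzymes. The smallest ratios belonged to Bpgm, Nfe2, Ppox and Slc25a38. Among genes outside the 36 and the fixed lists, those with at least 10 CPM in control replicate 1 and the largest such ratio were Arhgdig (13.1 times), Srp54b, Cacna1c, Dnph1, Hacd1, Pdia2, Mpp2, Smim1, Sec14l2 and Apol11b (7.40 times). Smim1, which in humans carries the Vel blood group antigen, read 2.26, 1.96 and 1.02 CPM after CTT and 49.96, 6.54 and 2.33 CPM in control. Apol11b, of the apolipoprotein L family, read 1.64, 1.57 and 0.310 CPM after CTT and 108, 14.6 and 3.57 CPM in control. In both genes control replicate 2 was next highest, as in most of the 36, while in Srp54b and Hacd1 a CTT library exceeded it. Srp54b has near-identical copies, so its reads are uncertain.

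Of 32 further erythroid genes, 30 were tested, 0 passed in edgeR, and their median log2 fold change was −2.38, or −0.66 without control replicate 1. Art4, which carries the Dombrock blood group in humans, read 1.70, 1.87 and 1.18 CPM after CTT and 32.1, 7.10 and 2.16 CPM in control. Of 14 further heme and iron supply genes, 0 passed in edgeR (median −0.63, or −0.08 without control replicate 1). The 26 listed cell cycle genes, highest in the same control library, had a median of −1.29, or −0.32 without control replicate 1, and 0 passed in edgeR. In contrast, the 10 red pulp macrophage markers summed to 2815, 3550 and 3089 CPM after CTT and 2983, 2767 and 2810.0 CPM in control, without a peak in control replicate 1. The part of these other cells in the erythroid values was not tested.

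In the CCR2-selected monocytes 5 days after CTT, the erythroid transcripts were mostly lower in mice that also received anti-Ly6G. The 36 genes summed to 2056, 2205 and 1511 CPM in the anti-Ly6G libraries and 3239, 2411 and 2216 CPM in the CTT monocyte libraries, so that the sums did not overlap, although anti-Ly6G replicate 2 lay just below CTT replicate 3. Of the 36 genes, 32 had a log2 fold change below 0, with a median of −0.42, against −0.0044 over all 13294 tested genes. In edgeR 5 of the 36 fell (Hba-a2, Epor, Slc4a1, Tspan33 and Bpgm), where 5.12% of all tested genes fell, and 1 rose (Nfe2), where 10.2% rose. The other 30 did not pass. Groups did not overlap in 13 genes that were lower with anti-Ly6G (15.4% of all tested genes) and in 1 that was higher (20.6%). Leaving out anti-Ly6G replicate 3 left 0 of the 5 falls and a median of −0.26, and leaving out anti-Ly6G replicate 1 or 2 left 2 falls each. Falls over all tested genes dropped in the same fits, to 281 without replicate 3, 177 without replicate 1 and 318 without replicate 2, against 681 with all libraries. Anti-Ly6G replicate 3 was the lowest of its group in 32 of the 36 genes (33.6% of all tested genes), and CTT replicate 1 the highest of its group in 32 (39.2%).

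**Figure D3:**
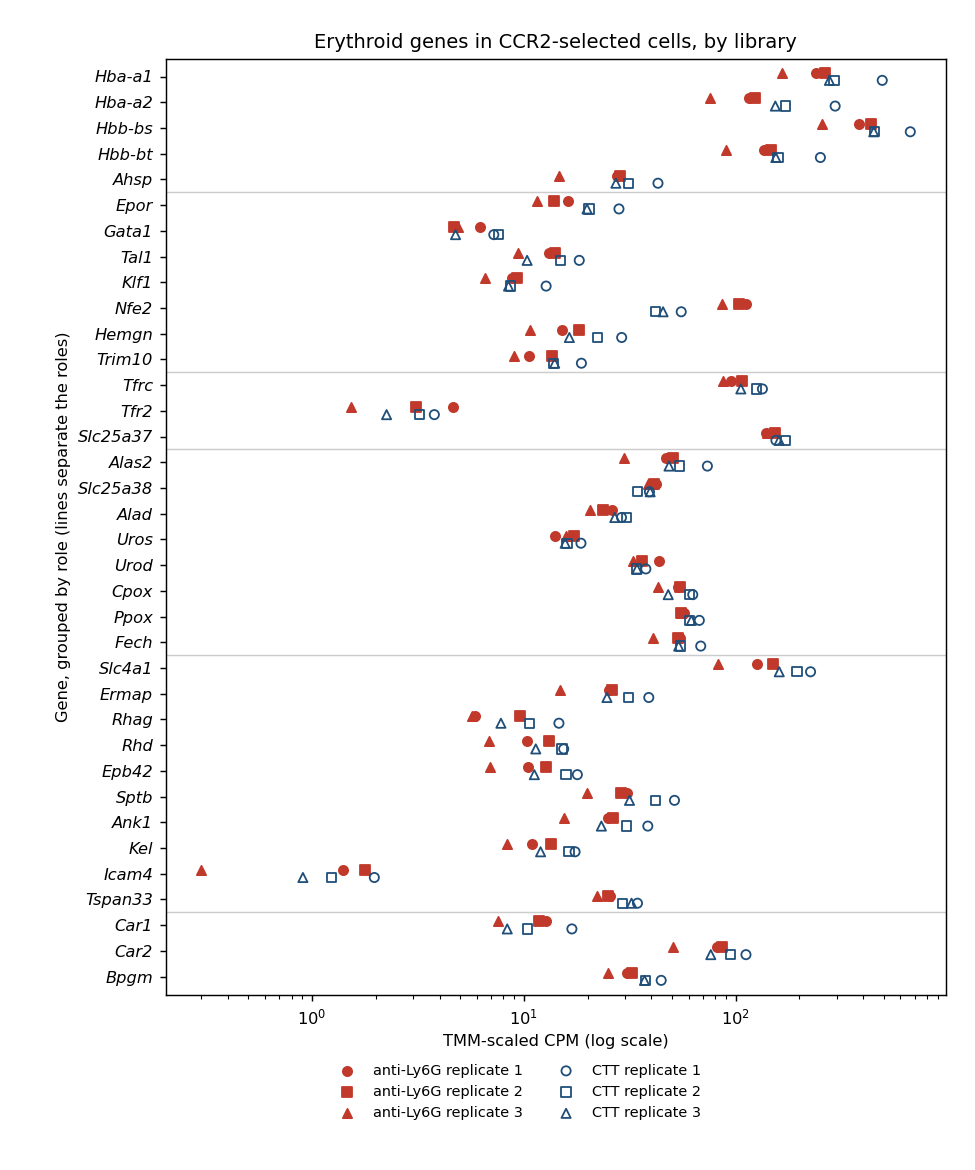
TMM-scaled CPM (log axis) of the 36 genes in the 6 CCR2-selected libraries, with filled red symbols for anti-Ly6G, open blue symbols for CTT alone, and the shape giving the replicate. Anti-Ly6G replicate 3 (filled triangles) is the lowest of its group for 32 genes, and Nfe2 is the gene whose anti-Ly6G libraries all lie above the CTT libraries.

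Among globin genes Hba-a2 (chromosome 11, 32296492 to 32297310) read 115, 124 and 76.1 CPM with anti-Ly6G and 295, 171 and 154 CPM with CTT alone. It fell by 0.98 on the log2 scale (SE 0.25, edgeR adjusted p = 0.0344). Every anti-Ly6G library was below every CTT library, but the call was lost without anti-Ly6G replicate 1, 2 or 3 (edgeR adjusted p 0.0888, 0.0612 and 0.0956). Hbb-bs read 383, 434 and 256 CPM with anti-Ly6G and 668, 453 and 449 CPM with CTT alone (log2 fold change −0.55, SE 0.21, edgeR adjusted p = 0.106). Hba-a1 and Hbb-bt had −0.67 and −0.60 (edgeR adjusted p 0.0882 and 0.0982), also without overlap. Ahsp had −0.52 (SE 0.25, edgeR adjusted p = 0.203), with overlap. Since Hba-a1 and Hba-a2 may exchange reads, the difference in call between them is uncertain.

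The regulators again held opposite cases. Epor (chromosome 9, 21958897 to 21963576) read 16.2, 13.9 and 11.6 CPM with anti-Ly6G and 28.1, 20.3 and 19.9 CPM with CTT alone. It fell by 0.71 (log2, SE 0.17, edgeR adjusted p = 0.0240), and was not called without anti-Ly6G replicate 2 or 3 (edgeR adjusted p 0.0750 and 0.0772). Nfe2 (chromosome 15, 103248212 to 103258403) read 112, 104 and 86.6 CPM with anti-Ly6G and 55.3, 41.9 and 45.4 CPM with CTT alone. It rose by 1.08 (log2, SE 0.12, edgeR adjusted p = 0.000905) and was called in each of the 6 fits that left out a library, with log2 fold changes of 0.99 to 1.21. Neutrophil markers were higher in the same libraries: 11 of 12 rose, and their sum was 18057, 16828 and 13354.5 CPM with anti-Ly6G against 6646, 4985 and 4817 CPM with CTT alone. The part of those cells in the Nfe2 value was not tested. Klf1, Gata1 and Tal1 had log2 fold changes of −0.27, −0.31 and −0.25 (edgeR adjusted p 0.396, 0.366 and 0.479), with levels of 6.59 to 9.30, 4.67 to 6.19 and 9.40 to 13.97 CPM with anti-Ly6G and 8.46 to 12.7, 4.76 to 7.58 and 10.4 to 18.3 CPM with CTT alone. Hemgn and Trim10 had −0.61 and −0.49 (edgeR adjusted p 0.110 and 0.1005).

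In the membrane group Slc4a1 (chromosome 11, 102348820 to 102365281) read 126, 150.2 and 82.4 CPM with anti-Ly6G and 226, 195 and 161 CPM with CTT alone. It fell by 0.70 (log2, SE 0.20, edgeR adjusted p = 0.0486), next to the threshold, and was called in 1 of the 6 fits that left out a library, the one without anti-Ly6G replicate 2 (edgeR adjusted p 0.0349 there and 0.0602 to 0.121 in the other 5). Tspan33 (chromosome 6, 29694214 to 29718558) read 25.6, 24.96 and 22.1 CPM with anti-Ly6G and 34.4, 29.3 and 32.2 CPM with CTT alone. It fell by 0.40 (log2, SE 0.09, edgeR adjusted p = 0.0226), and was not called without anti-Ly6G replicate 2, anti-Ly6G replicate 3 or CTT replicate 3 (edgeR adjusted p 0.0586, 0.0762 and 0.0771). B cell markers summed to 2961, 3631 and 4090.5 CPM with anti-Ly6G and 3815, 5581 and 5454 CPM with CTT alone (1 of 9 fell), and their part in the Tspan33 value was not tested. Sptb had −0.65 (SE 0.20, edgeR adjusted p = 0.0583), without overlap. The other 7 membrane genes had log2 fold changes of −0.64 (Rhag) to −0.24 (Icam4) and overlapped.

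Bpgm (chromosome 6, 34476356 to 34505136) read 30.7, 32.4 and 24.96 CPM with anti-Ly6G and 44.5, 37.4 and 37.1 CPM with CTT alone. It fell by 0.43 (log2, SE 0.11, edgeR adjusted p = 0.0368) and was called in 1 of the 6 fits that left out a library (edgeR adjusted p 0.0492 without anti-Ly6G replicate 2, and 0.0502 to 0.0932 in the other 5). Car1 and Car2 had −0.15 and −0.38 (edgeR adjusted p 0.757 and 0.235).

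Of the 8 heme synthesis genes 0 passed in edgeR, with a median log2 fold change of −0.18 between −0.47 (Alas2) and 0.11 (Slc25a38). Alas2 read 46.9, 50.7 and 29.8 CPM with anti-Ly6G and 73.6, 54.2 and 48.5 CPM with CTT alone. Alad, with −0.30, and Ppox, with −0.18, were lower in all 3 anti-Ly6G libraries than in any CTT library (edgeR adjusted p 0.0825 and 0.0997). Alas1, outside the 36, rose by 1.00 (log2, SE 0.10, edgeR adjusted p = 0.000428), at 98.4, 79.8 and 78.7 CPM with anti-Ly6G and 45.5, 41.3 and 41.7 CPM with CTT alone. As in the neutrophil libraries, the sign of Alas1 was opposite to that of Alas2. Tfrc, Slc25a37 and Tfr2 had −0.34, −0.17 and 0.0012 (edgeR adjusted p 0.0598, 0.112 and 0.998), and the sign of Tfr2, at 1.53 to 4.61 CPM with anti-Ly6G and 2.25 to 3.78 CPM with CTT alone, turned in most other settings.

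**Figure D4:**
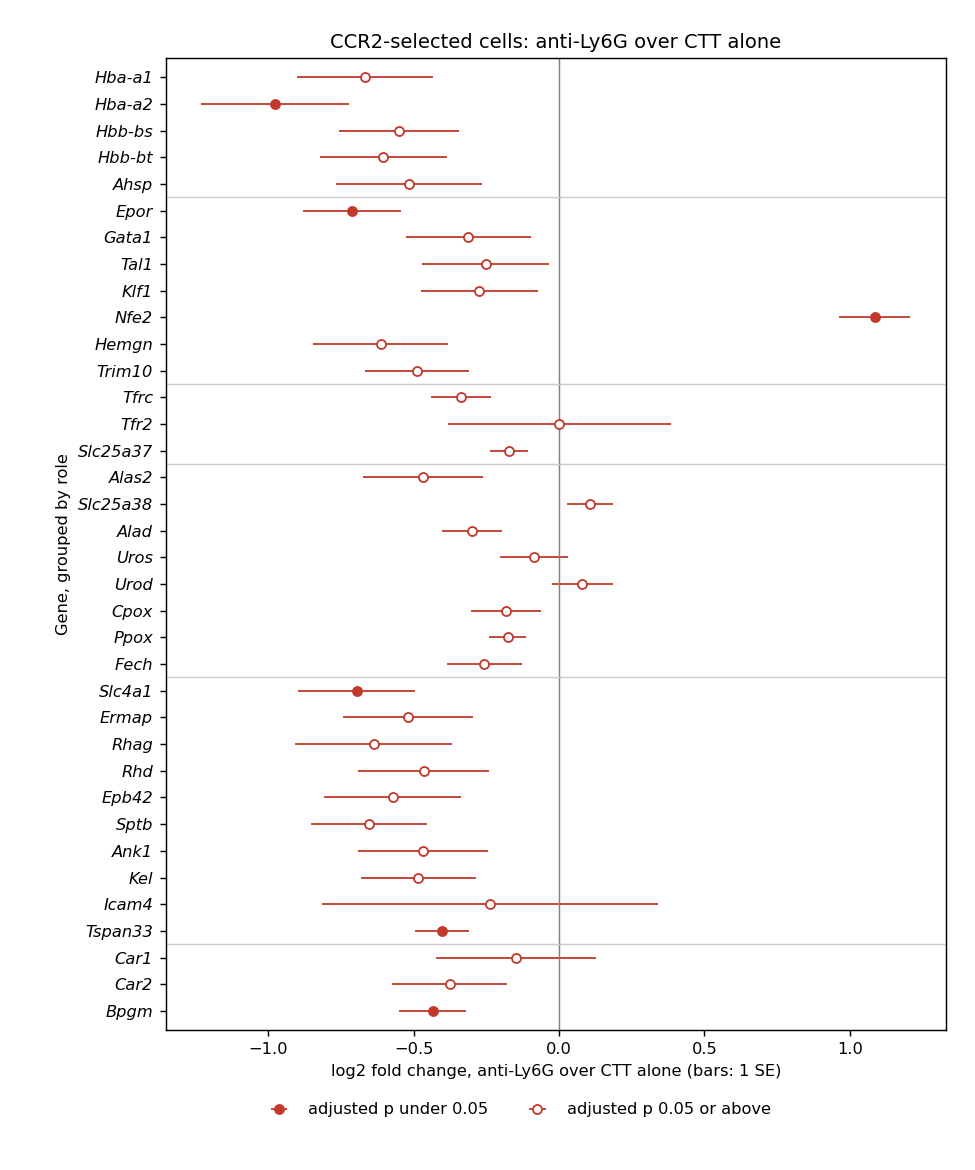
Log2 fold change (anti-Ly6G over CTT alone, bars of 1 SE, edgeR) of the 36 genes in CCR2-selected cells, with filled circles for adjusted p below 0.05. Of the 6 filled circles, 5 lie below 0 and Nfe2 lies above it at 1.08.

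Other lists moved in both directions in the monocyte libraries. Of the 30 tested erythroid genes outside the 36, 1 rose (E2f2, a cell cycle factor with a role in late erythroid divisions, log2 fold change 0.53, edgeR adjusted p = 0.00278) and 2 fell (Blvrb, a biliverdin reductase abundant in red cells, −0.57, and Slc43a1, an amino acid carrier, −0.60, edgeR adjusted p 0.0205 and 0.0450), with a median of −0.28. Of 14 further heme and iron supply genes 2 rose, Alas1 and the heme exporter gene Flvcr1 (0.27, edgeR adjusted p = 0.0322), with a median of 0.04. Cell cycle genes, which peaked beside the erythroid genes in neutrophil control replicate 1, rose here in 16 of 26 and fell in 0, with a median of 0.41. In neutrophils their median had been −1.29, or −0.32 without that library, and 0 passed in edgeR. Red pulp macrophage markers fell in 7 of 10 genes, among them Adgre1 (−0.71) and Cd163 (−0.98), and summed to 7461, 7524 and 6897 CPM with anti-Ly6G and 13896, 8474 and 9806 CPM with CTT alone. CTT replicate 1 was highest both for these markers and for the 36 genes. Monocyte markers rose in 6 of 9 genes and 1 fell. The part of these cells in the erythroid values was not tested.

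Globin was then set against other erythroid genes of the same library. Levels were compared per gene length, as FPKM (fragments per kilobase of gene scaled by sequencing depth), within each library, so that scaling between libraries does not enter. The 4 globin genes together stood at 32.7, 72.3 and 101 times the FPKM of Klf1 in the CTT neutrophil libraries and at 61.1, 83.9 and 73.1 times in the control neutrophil libraries. In the monocyte libraries the ratio was 243, 254 and 218 with anti-Ly6G and 330, 304 and 299.7 with CTT alone. All 6 monocyte libraries thus held more globin per Klf1 than any neutrophil library, and the anti-Ly6G libraries less than the CTT monocyte libraries. Against Gata1 the ratio was 58.4, 112 and 151 in the CTT neutrophil libraries and 141, 145 and 126 in the control neutrophil libraries. In monocytes the Gata1 ratio was 487, 716 and 416 with anti-Ly6G and 825, 492 and 754 with CTT alone, so these groups overlapped. Against Slc4a1 the ratio was 14.2, 26.01 and 42.9 in the CTT neutrophil libraries and 17.4, 21.5 and 24.2 in the control neutrophil libraries, and 52.2, 48.5 and 53.7 with anti-Ly6G and 57.4, 41.7 and 48.7 with CTT alone in monocytes. Against Alas2 the libraries lay much closer together, at 53.8, 62.4 and 63.1 in the CTT neutrophil libraries, 53.1, 58.4 and 58.1 in the control neutrophil libraries, 62.2, 63.8 and 65.8 with anti-Ly6G and 78.2, 66.5 and 71.5 with CTT alone. Control replicate 1, which held the most erythroid RNA, had ratios within the range of the other neutrophil libraries for Klf1 and Slc4a1. Alas2 per Klf1 was 0.609, 1.16 and 1.59 in the CTT neutrophil libraries and 1.15, 1.44 and 1.26 in the control neutrophil libraries, but 3.91, 3.98 and 3.31 with anti-Ly6G and 4.23, 4.58 and 4.19 with CTT alone in monocytes. The antibody, the day and the table differ together between neutrophil and monocyte libraries and cannot be told apart.

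**Figure D5:**
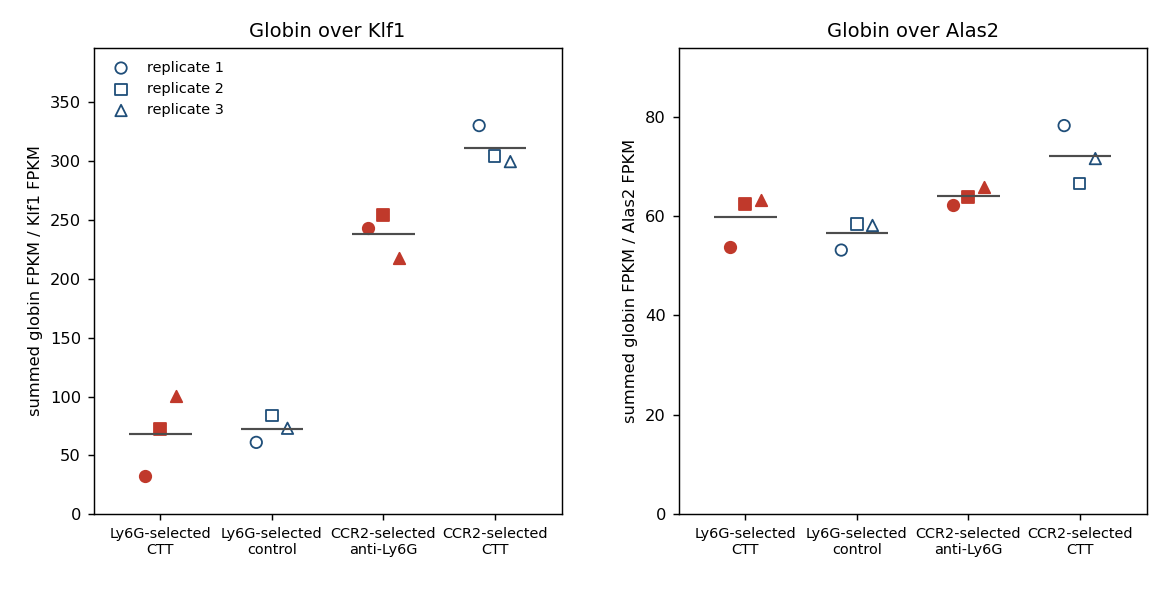
Summed FPKM of the 4 globin genes divided by the FPKM of Klf1 (left) and of Alas2 (right) in each of the 12 libraries, with the replicate number given by shape and a line at each group mean. The Klf1 ratio lies between 32.7 and 101 in the neutrophil libraries and between 218 and 330 in the monocyte libraries, while the Alas2 ratio stays between 53.1 and 78.2 in all 12.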

How the data were processed

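Spleen cells selected with anti-Ly6G or anti-CCR2 were lysed in TRIzol and, per the labels' protocols, made into libraries with a VAHTS Universal V6 RNA-seq kit. Whole-number counts of reads per gene were deposited; per the submitters' processing notes the alignment used HISAT2 on mm10 and the counting used HTSeq. No source used here gives their versions, the annotation or the strand setting. The authors also deposited FPKM values of the same libraries, used here for ratios between genes and in alternatives. Each cell type was fitted alone in R 4.3.3 with edgeR 4.0.16 (filterByExpr, TMM, two-sided quasi-likelihood F test, Benjamini-Hochberg over all tested genes, threshold 0.05). Standard errors are the absolute log2 fold change over the root of F. Alternatives used DESeq2 1.42.0 and limma 3.58.1. The 36 genes, 11 further gene lists and the tests were chosen with earlier results of these data known. Named genes are all 36, up to 4 per list with the smallest p in a comparison, and the 10 genes with the largest ratio of control replicate 1 to the other neutrophil libraries; Ly6g in neutrophils was added after its values were seen. A few genes of the lists are not reported here. Overlapping genes came from GENCODE. The fit was tested on simulated counts. With the neutrophil libraries it recovered 0% of 1.5-fold, 19.7% of 2-fold and 70.3% of 4-fold changes. With the monocyte libraries it recovered 59.1%, 85.9% and 93.9%, so counts of called genes are not alike between the 2 comparisons. The changed genes were drawn at random from all tested genes. These rates therefore do not describe the 36 genes, which were spread widely among the control neutrophil libraries. All pairs of libraries differed beyond counting error by a chi-square over genes. At these depths counting error matters mainly for genes near 1 CPM.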

Additional observations from a re-analysis of the deposited data

How the results depend on the processing

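The count of the 36 genes called after CTT in neutrophils was 0 in all settings but DESeq2, where it was 6. Over all genes that count was 74, and became 562 with DESeq2, 45 with limma-trend on log2 of FPKM plus 1, 8 with that fit without a filter, and 0 to 288 when a library was left out, with 288 without control replicate 1 and 0 without any other. In monocytes the 6 called genes of the 36 became 11 with DESeq2, 2 with limma-trend on log2 of FPKM plus 1 without a filter, and 1 to 5 when a library was left out. All genes called, 2035, became 2770 with DESeq2 (1566 higher, 1204 lower), 1205 with that unfiltered limma-trend fit and 938 to 2855 when a library was left out.

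The sign turned in neutrophils for Nfe2 (−0.91 to 0.15 over the fits that left out a library) and Ppox (−1.04 to 0.10), in both without control replicate 1. In monocytes it turned for Icam4 (−0.69 to 0.21), Car1 (−0.36 to 0.19) and Urod (−0.039 to 0.17) when a library was left out. Tfr2 in monocytes had −0.41 to 0.32 there, and −0.0109 with DESeq2 size factors, −0.030 with library totals, −0.0012 without a filter, −0.0113 with DESeq2, −0.098 with limma-voom, −0.033 with limma-trend on log2 of FPKM plus 1 (with or without a filter) and −0.11 with plus 0.1. Leaving the 36 genes out of library sizes and TMM changed 0 calls among them. The causes were not tested.

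The replicate numbers in the titles were tried as a block. Deviations of same-numbered libraries from their group means correlated at 0.25, 0.00015 and 0.23 in neutrophils and 0.17, −0.06 and 0.22 in monocytes. Replicates 1 and 3 of each comparison correlated best with their own number, but replicate 2 did not. The main fit did not take the numbers as pairs, and whether they mark pairs was not settled. With the replicate block, 5 genes were called in neutrophils, 0 of them among the 36, and 21 of the 36 were called in monocytes, 20 lower and 1 higher, with Tfr2 at −0.085, where 2594 of all 13294 tested genes were called, 1043 lower and 1551 higher. Among the 36, Icam4 had the fewest reads, so counting error weighs most on its values.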

Other observations

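Both alpha globin genes, whose promoter windows hold the same letters, were counted in proportions that differed between tables. Hba-a1 had 3.99, 3.27 and 2.78 times the reads of Hba-a2 in CTT neutrophil replicates 1, 2 and 3, and 3.95, 3.20 and 2.84 times in control neutrophil replicates 1, 2 and 3. The values of libraries with the same replicate number lay close together although the libraries differed several-fold in globin level. In monocytes the ratio was 2.08, 2.12 and 2.17 with anti-Ly6G and 1.67, 1.70 and 1.80 with CTT alone. The beta globin genes Hbb-bs and Hbb-bt gave 5.55, 6.10 and 7.88 in CTT neutrophils, 4.18, 4.45 and 5.14 in control neutrophils, 2.82, 2.96 and 2.85 in anti-Ly6G monocytes and 2.66, 2.86 and 2.90 in CTT monocytes. No source used here says how the counting split reads between these copies.

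Cells that share GATA1 or TAL1 with the erythroid lineage were read from their own markers. The 14 megakaryocyte and platelet genes summed to 113, 128 and 190.1 CPM after CTT and 329, 187 and 134 CPM in control neutrophil libraries (0 called in edgeR, median log2 fold change −0.73, or −0.16 without control replicate 1), and in monocytes 1 of 14, Pf4, rose and 0 fell, with a median of 0.16. The 9 mast cell and granulocyte genes summed to 297, 286 and 332 CPM after CTT and 119, 153 and 127 CPM in control neutrophil libraries, with Hdc, histidine decarboxylase, the 1 that rose (1.42, SE 0.14, edgeR adjusted p = 0.0173). The median log2 fold change of the 9 genes was 0.29, or 0.26 without control replicate 1. In monocytes Hdc was again the 1 that rose (0.99, SE 0.12, edgeR adjusted p = 0.00110), while the median of the 9 genes was −0.04. Hdc alone read 195, 245 and 180 CPM with anti-Ly6G, where the 9 genes summed to 261, 296 and 241 CPM. With CTT alone it read 96.3, 116 and 99.7 CPM of 169, 175 and 152 CPM. Of the 5 progenitor genes, 0 were called in edgeR in either comparison. Of 9 tested T and NK cell genes, 0 were called in neutrophils, and 3 rose and 1 fell in monocytes. Neutrophil, monocyte and B cell markers in the neutrophil libraries rose in 2 of 12, 0 of 9 and 0 of 9 genes in edgeR, and 0 fell. The 12 neutrophil markers summed to 7712, 8126 and 12821 CPM after CTT and 4124, 6091 and 4491 CPM in control, without overlap of the sums. Their median log2 fold change was 0.99, or 0.94 without control replicate 1. CTT replicate 3 had the highest sum of these markers and the lowest sum of the 36 genes. The part of the neutrophils in the erythroid values was not tested.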
